A study of Mus musculus with 15 samples.

Results

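The genes described here are 9 of the DNA methylation machinery, followed by name through RNA-seq of mouse melanoma lung metastases grown under 4 methionine diets. They are the writers Dnmt1, Dnmt3a and Dnmt3b with the cofactor Uhrf1, the erasers Tet1, Tet2 and Tet3, and the readers Mbd1 and Mbd2. All 9 matched 1 of the 37620 Ensembl gene IDs in the tables, and all 9 passed the filter on low counts that kept 16001 genes.

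The cells were B16-F10.1, a pigmented mouse melanoma line injected into a tail vein and carried to the lung, so the lesions come from 1 line and not from spread of a primary tumour. Every host was a male C57BL/6J mouse aged 8 weeks, given 100000 cells and kept 21 days before 2 weeks on its test diet. The labels name the diets methionine adequate (3 libraries, no percentage given), supplemented at 300% (6 libraries), restricted at 25% (3 libraries) and deficient at 0% (3 libraries). The supplemented diet is known from the sample labels only. Nothing in the labels ties a library to its own mouse, and the p-values therefore cover only the spread among these samples, which may be technical.

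DNA methylation in mammals sits mainly on cytosines followed by guanine. Dnmt1 copies it onto the new strand after replication, guided by Uhrf1, which binds DNA methylated on the old strand only, while Dnmt3a and Dnmt3b place it on unmarked sites. Tet enzymes oxidise the mark and so begin its removal, and Mbd proteins bind it and recruit repressive complexes. The methyl group comes from S-adenosylmethionine, which cells make from methionine, and this links the gene set to the diets compared here. The values below are messenger levels, and neither enzyme activity nor methylation was measured.

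Promoter sequences were looked up because Dnmt1 and Uhrf1 are genes of dividing cells. Their log2 levels correlated across the libraries at Pearson r = 0.569, no closer than those of Dnmt1 and Tet2 (0.571). Mbd1 and Mbd2 were left out of this search. RefSeq promoters on build GRCm38.p6 were taken for the other 7 genes, in 12 windows of 300 bases. The windows ran from 250 bases before to 50 after a start site. Each was searched on both strands for the letters TTTCCCGC, TTTCGCGC, TTTGGCGC and TTTGCCGC, which E2F factors of the replication programme can bind. Of the 12 windows, 2 held a match, and the capitals below mark it. The matching Dnmt1 window, number 3 of 3, lies at chr9:20952574-20952873 on the minus strand. The matching Uhrf1 window, number 2 of 2, lies at chr17:56304063-56304362 on the plus strand. The other windows of both genes held no match.
Dnmt1: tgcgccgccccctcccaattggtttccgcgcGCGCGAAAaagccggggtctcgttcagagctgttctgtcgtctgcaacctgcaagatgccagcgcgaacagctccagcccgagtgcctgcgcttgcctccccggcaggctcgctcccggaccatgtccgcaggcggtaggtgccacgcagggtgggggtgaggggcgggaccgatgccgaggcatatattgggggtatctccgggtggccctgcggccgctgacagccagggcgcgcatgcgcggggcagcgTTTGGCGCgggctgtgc
Uhrf1: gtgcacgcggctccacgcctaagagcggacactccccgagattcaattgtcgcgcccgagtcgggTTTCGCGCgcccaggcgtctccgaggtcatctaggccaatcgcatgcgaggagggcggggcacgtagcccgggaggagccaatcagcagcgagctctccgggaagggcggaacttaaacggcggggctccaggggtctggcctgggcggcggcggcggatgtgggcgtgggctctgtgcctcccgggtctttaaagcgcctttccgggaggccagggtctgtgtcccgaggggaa
In the Dnmt1 window a reverse-strand match began 219 bases before the start site and a forward match 33 bases after it. The Uhrf1 window held a single match, which began 185 bases before the start site. These offsets count from the listed start site of the printed window. Dnmt1 had 3 windows and Uhrf1 2, and which start site these libraries used was not tested. Such letters occurred in 2.26% of all 32851 promoters of this length and in 13 of 37 promoters of a replication gene list. Each of the printed windows held 33 CpG dinucleotides, where the median promoter held 7. The windows of the set without a match held from 2 (Dnmt1) to 57 (Tet2), so this count is not particular to the printed ones. A match describes these letters and does not show binding.

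The libraries held 13107679 to 29994264 counts. Melanocyte markers, such as Tyr, Dct and Pmel, were all detected, 12 of 12, and summed to 18286 to 35379 CPM (read counts scaled to library size) per library. Host lung was present as well: 12 alveolar type 2 markers summed to 124.5 to 6835 CPM, none at 0 in every library. Tumour and host share their genome, so a level cannot be assigned to either. In such bulk tissue, fewer cells of a type and less RNA per cell cannot be told apart.

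Adequate replicate 1 stood apart and touches every comparison with that diet. Its scaling factor (TMM, edgeR's trimmed mean method) was 0.69, where the other 14 lay between 0.945 and 1.16. It was the lowest of 15 libraries for 5 of the 9 genes, Dnmt1, Dnmt3a, Tet1, Tet2 and Tet3, and for 19% of all genes tested. Over all genes, the difference followed transcript length. Against the mean of the other adequate libraries, its log2 CPM differed by a median of 0.60 for 2370 genes with an effective length (the length over which reads can start) under 1 kb. The median was 0.11 for 8631 genes of 1 to 3 kb and -0.44 for 4794 longer genes. For Tet3, of mean effective length 6.80 kb, the difference was -2.40, a value below which only 1.36% of genes fell. It was -1.57 for Dnmt3a (5.29 kb), -0.98 for Dnmt3b (3.65 kb), -0.80 for Tet1 (4.90 kb), -0.99 for Tet2 (7.68 kb) and -0.57 for Dnmt1 (5.13 kb). The short Mbd2 (1.41 kb) and Mbd1 (2.40 kb) differed by 0.13 and 0.16, and Uhrf1 (3.32 kb) by 0.12. When a smooth dependence on transcript length was removed, this library was no longer the lowest for Dnmt1, Dnmt3a, Tet1 and Tet2. It remained the lowest for Tet3, at 31.6 CPM where the lowest other library held 63.4 CPM, and the source of that remainder was not tested. Log2 differences of the 9 genes from the adequate diet are therefore given with and without this library.

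**Figure D1:**
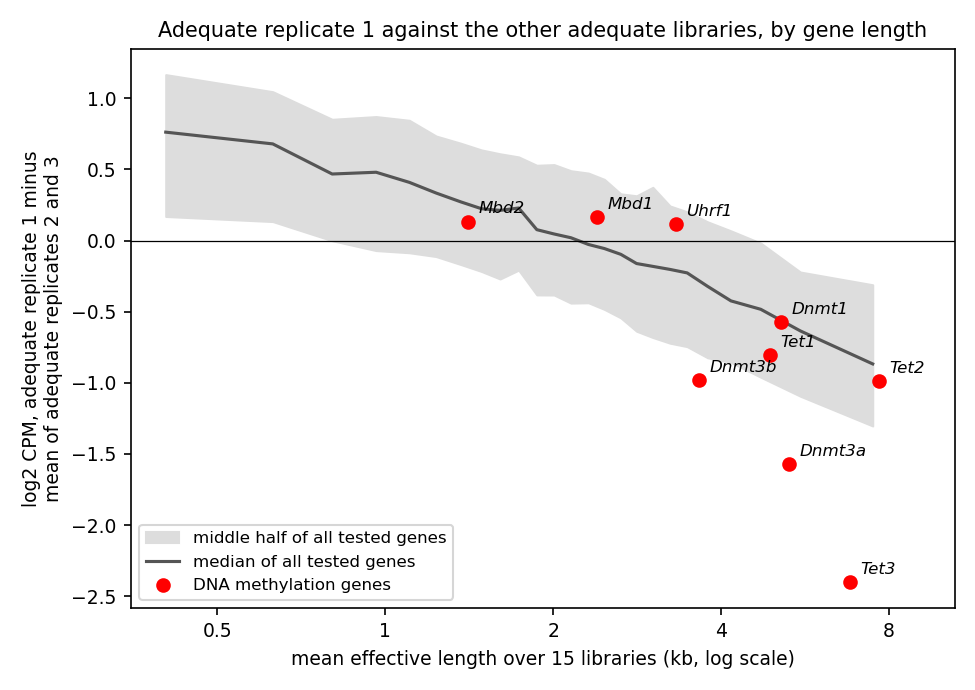
Log2 CPM of adequate replicate 1 minus the mean of adequate replicates 2 and 3 (vertical axis) against mean effective length in kb (log axis). Red points are the 9 genes, the line is the median and the band the quartile range of 15795 tested genes in 25 length bins. Tet3 at -2.40, Dnmt3a at -1.57 and Dnmt3b at -0.98 lie below the band, while Mbd1, Mbd2 and Uhrf1 lie between 0.12 and 0.16.

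Levels were compared between genes per kilobase of effective length. Mbd2 (median 40.6 CPM per kb over 15 libraries), Uhrf1 (37.2) and Dnmt1 (35.02) were the most abundant. Mbd2 was above Uhrf1 in 13 of 15 libraries, but the order of Uhrf1 and Dnmt1 was not settled, since Uhrf1 had the higher median and was above Dnmt1 in only 4 of 15. Dnmt3a (18.6) was below Dnmt1 in 14 of 15 libraries and above Tet3 (13.2) in 13 of 15. Tet3 was above Mbd1 (9.55) in 11 of 15, and Mbd1 above Tet2 (5.41) in all 15. Dnmt3b (1.18) and Tet1 (0.952) were scarce, and Dnmt3b exceeded Tet1 in 11 of 15 libraries. Between the paired de novo writers, Dnmt3a exceeded Dnmt3b per kilobase in every library, by a median of 15.3 times and a range of 7.67 to 30.4. Effective lengths are themselves estimates. That of Tet1 ran from 1.47 to 14.2 kb between libraries on 21 to 179 counts, and that of Dnmt3a was shortest, 2.88 kb, in adequate replicate 1. With each gene's mean length in place of the library's own, the order of the medians was the same.

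Across diets, no gene of the set passed the test. With edgeR's quasi-likelihood test and adjustment over all 16001 genes, 0 of 9 were called in any of 6 diet pairs, in the joint test of all diets (any difference), or in a trend along the methionine order. The background was equally sparse: 0.00625% of genes passed for deficient against adequate and for any difference, and 0% passed in the other 6 tests. The smallest adjusted p among the 54 gene and diet pairs was 0.259, for Tet2 in deficient against adequate. At an unadjusted p under 0.05 there were 6 of 54, all in comparisons with the adequate diet and all higher in the other diet. Deficient against adequate gave 2 of 9 (Tet1, Tet2), where 15.1% of all genes did so, 9.29% on the higher side. Restricted against adequate gave 3 of 9 (Dnmt1, Tet1, Tet2), where 9.17% did, 4.87% on the higher side. Supplemented against adequate gave 1 of 9 (Tet2), where 9.77% did, 4.85% on the higher side. These comparisons share the 3 adequate libraries. Between the other diets the count was 0 of 9 each time, where 7.44% (deficient against restricted), 5.45% (deficient against supplemented) and 2.18% (restricted against supplemented) of genes did so. DESeq2 gave 6 and limma-voom 5 of 54 at an unadjusted p under 0.05, and neither called a gene after adjustment. With edgeR the count was 4 of 54 without adequate replicate 1 and 8 without adequate 1, supplemented 5 and deficient 3. It was 1 with length offsets, an adjustment for transcript length chosen after seeing the data. With the level of a gene list as covariate it was 8 (endothelial, also chosen after seeing the data), 7 (replication) and 5 (alveolar type 2). The share of all genes under this mark was taken in the main fit only, so counts from other settings have no background here.

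Libraries of a diet pair did not overlap in 5 of the 54 gene and pair combinations. All were against the adequate diet, with the other diet higher. In deficient this was Tet2, 1 of 9, where 15.9% of all genes did not overlap and 7.91% were higher. In restricted they were Dnmt1, Tet1 and Tet2, 3 of 9, where 16.6% did not overlap and 8.37% were higher. In supplemented it was Tet2 again, 1 of 9, where 4.38% did not overlap and 2.14% were higher. In the other pairs none of the 9 was free of overlap, where 11.1% of genes were for deficient against restricted, 1.91% for deficient against supplemented and 2.11% for restricted against supplemented.

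**Figure D2:**
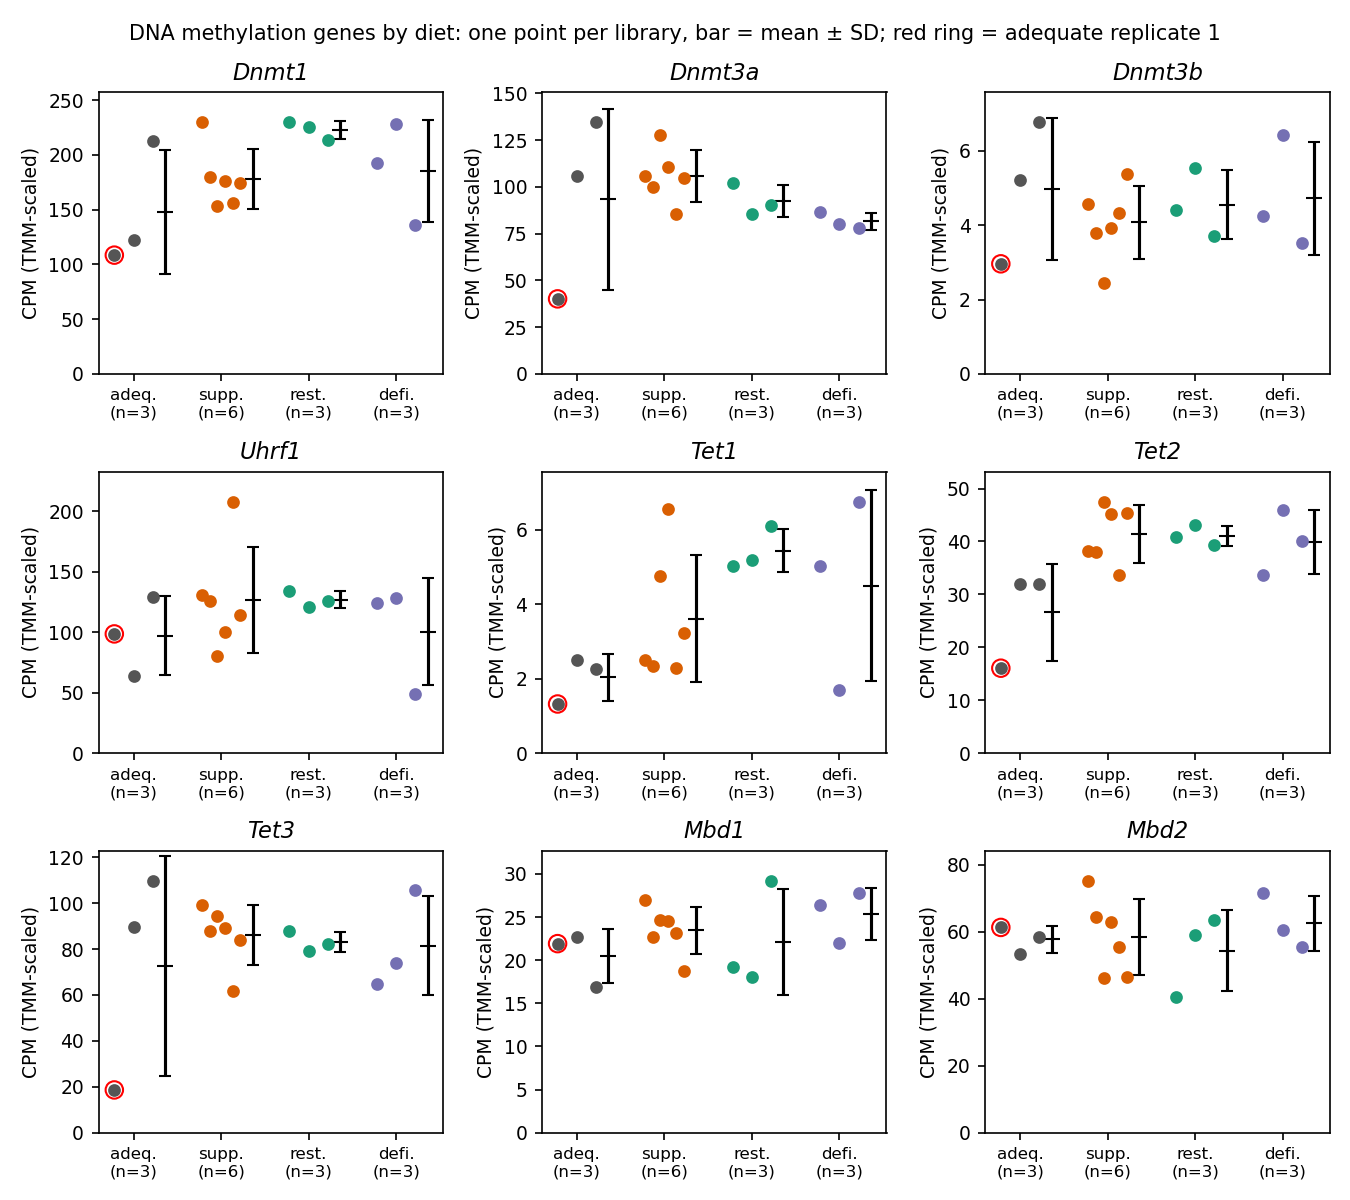
CPM after TMM scaling of each gene in the 15 libraries by diet (adequate, supplemented, restricted, deficient), 1 point per library, with the mean and SD as a black bar beside the points and adequate replicate 1 ringed in red. The ringed library is the lowest point of Dnmt1, Dnmt3a, Tet1, Tet2 and Tet3, and the adequate libraries of Tet2, at most 32.0, lie under all 12 others, at least 33.7.

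Dnmt1, the maintenance methyltransferase, was measured at 108, 122 and 213 CPM under the adequate diet and at 229.5, 225 and 213 CPM under the restricted diet. The deficient libraries held 192, 228 and 136 CPM, and the 6 supplemented ones ran from 153 through a median of 175 to 229.8 CPM. The restricted libraries were the tightest group, 223 ± 8.35 CPM (SD, n = 3), and the adequate ones were spread widely, 148 ± 56.6 (SD, n = 3). Restricted and adequate libraries just failed to overlap, with the lowest restricted at 213.4 and the highest adequate at 212.7 CPM. The restricted level was higher by 0.59 (SE 0.25) on the log2 scale, with an edgeR adjusted p of 0.490. Without adequate replicate 1 the difference was 0.40 (adjusted p = 0.689), and without adequate replicate 3 it was 0.95 (adjusted p = 0.168), so both libraries weigh on it. In supplemented and deficient the differences from adequate were 0.27 and 0.33, and without adequate replicate 1 they were 0.08 and 0.14. Against restricted, the deficient level differed by -0.26 (SE 0.25), with a 95% interval of -0.79 to 0.26, and by -0.08 without deficient replicate 3.

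Uhrf1, the partner that brings Dnmt1 to newly replicated DNA, was tight in the restricted libraries, 127 ± 6.72 CPM (SD, n = 3), and spread widely in the other diets. The adequate libraries held 98.7, 64.0 and 129 CPM and the restricted ones 134, 121 and 126 CPM. The deficient libraries held 124, 128 and 49.3 CPM, and the supplemented ones ran from 80.8 through a median of 120.1 to 208 CPM. The lowest library of all was a deficient one and the highest a supplemented one, and every pair of diets overlapped. Differences between diets lay between -0.34 and 0.38 on the log2 scale, and the smallest edgeR adjusted p was 0.727. They rested on single libraries. Without deficient replicate 3, which also had the highest alveolar type 2 level (6835 CPM), deficient against restricted went from -0.34 to -0.01, deficient against supplemented from -0.34 to -0.01, and deficient against adequate from 0.05 to 0.37. Without adequate replicate 2, restricted against adequate went from 0.38 to 0.16 and supplemented against adequate from 0.38 to 0.15. Adequate replicate 1 moved the Uhrf1 differences from adequate little, to 0.38, 0.38 and 0.05 in supplemented, restricted and deficient when it was left out. The intervals were wide, and only 2 of 6 stayed within a 2-fold change either way.

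Dnmt3a, a de novo methyltransferase, was measured at 40.1, 106 and 135 CPM under the adequate diet and at 86.8, 80.2 and 77.7 CPM under the deficient one. The restricted libraries held 102, 85.5 and 90.3 CPM, and the supplemented ones ran from 85.2 through a median of 105 to 128 CPM. Apart from adequate replicate 1, the 2 lowest libraries were deficient and the highest was adequate, and these diets overlapped only through that replicate. In the full fit deficient differed from adequate by -0.20 (SE 0.29), with an edgeR adjusted p of 0.782. Without adequate replicate 1 this became -0.57 (SE 0.17), with an unadjusted p of 0.00535 and an adjusted p of 0.243, and it was still not called. Without adequate replicate 3 it was 0.16, so the direction rests on which adequate libraries are read. Restricted against adequate moved likewise, from -0.01 to -0.39, and supplemented against adequate turned from 0.18 to -0.20. The slope per step of rising methionine (deficient, restricted, adequate, supplemented) was 0.12 (SE 0.08) on the log2 scale and 0.13 without that library, where edgeR gave an unadjusted p of 0.0184 and an adjusted p of 0.963. With all libraries, the 6 intervals of Dnmt3a stayed within a 2-fold change either way.

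Dnmt3b, the other de novo methyltransferase, was read at only 34 to 149 counts per library. Adequate libraries held 2.96, 5.22 and 6.78 CPM, restricted 4.42, 5.55 and 3.70 CPM, and deficient 4.24, 6.42 and 3.51 CPM. The supplemented ones ran from 2.45 through a median of 4.13 to 5.37 CPM. All diets overlapped, and differences lay between -0.29 and 0.21 on the log2 scale with adjusted p-values of at least 0.810 in edgeR. Single libraries moved these values. Without adequate replicate 1 the differences from adequate were -0.57 in supplemented, -0.41 in restricted and -0.35 in deficient, where they were -0.29, -0.13 and -0.08 with all libraries. Without adequate replicate 3 they were -0.01, 0.16 and 0.21. Deficient against supplemented turned from 0.21 to -0.07 without deficient replicate 2. Of the 6 Dnmt3b intervals, 5 stayed within a 2-fold change either way. Dnmt3l, the cofactor without enzyme activity, averaged under 1 CPM in every diet.

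Tet2 gave the smallest p-values of the set. Under the adequate diet it was measured at 16.1, 31.9 and 32.0 CPM. The restricted libraries held 40.9, 43.1 and 39.3 CPM, the deficient ones 33.7, 45.9 and 40.1 CPM, and the supplemented ones ran from 33.7 through a median of 41.7 to 47.5 CPM. All 3 adequate libraries were thus below all 12 others, which 0.981% of all tested genes showed. Relative to adequate, Tet2 differed by 0.63 (SE 0.20) in supplemented, 0.62 (SE 0.23) in restricted and 0.58 (SE 0.23) in deficient on the log2 scale. The edgeR adjusted p-values were 0.371, 0.437 and 0.259, and the unadjusted p for supplemented was 0.00701. The joint test of all diets gave an adjusted p of 0.499 in edgeR, with an unadjusted value of 0.0383.

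The size of the Tet2 difference depended on adequate replicate 1 and on transcript length. Without that library it was 0.36, 0.35 and 0.31 in the same order of diets, with edgeR adjusted p-values of 0.611, 0.599 and 0.489. With the length offsets, which remove a smooth dependence on transcript length from each library, the differences were 0.33, 0.43 and 0.19. On that scale the adequate libraries, at 28.5 to 33.2 CPM, lay inside the range of the others, 25.3 to 49.0 CPM. Among the other 3 diets, Tet2 differed by at most 0.05 on the log2 scale, and the widest of those intervals ran from -0.53 to 0.44.

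Tet1 was the scarcest of the set, with 21 to 179 counts per library. The adequate libraries held 1.32, 2.51 and 2.27 CPM, the restricted ones 5.03, 5.20 and 6.10 CPM, and the deficient ones 5.01, 1.71 and 6.75 CPM. The supplemented libraries ran from 2.29 through a median of 2.87 to 6.55 CPM. Every restricted library was above every adequate one, while deficient and supplemented spanned both. The differences from adequate were 1.41 (SE 0.53) in restricted, 1.13 (SE 0.53) in deficient and 0.83 (SE 0.47) in supplemented on the log2 scale, and the edgeR adjusted p-values were 0.445, 0.326 and 0.590. Without adequate replicate 1 they were 1.17, 0.89 and 0.58. Without deficient replicate 3, the library highest in endothelial and alveolar type 2 markers, the deficient difference was 0.73. None of the 6 Tet1 intervals stayed within a 2-fold change either way.

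Endothelial markers moved with Tet1 and, by rank, with Tet2. The 12 markers, all detected, summed to 155 to 223 CPM in adequate, 274 to 379 in restricted, 250.4 to 1801 in deficient and 139.9 to 538 in supplemented libraries, so that restricted and deficient libraries were above all adequate ones. Over the 15 libraries, Tet1 correlated with the mean log2 level of this list (Pearson r = 0.683, permutation p = 0.00257, adjusted p = 0.0274 over 27 relations). Spearman's rho was 0.679 (permutation p = 0.00694, adjusted p = 0.0625), r was 0.660 without the 2 libraries farthest in endothelial level, and 0.736 within diets. With this list as a covariate, also chosen after seeing the data, Tet1 differed from adequate by 1.06 in restricted, 0.20 in deficient and 0.32 in supplemented, with edgeR adjusted p-values of 0.384, 0.960 and 0.865. The covariate was itself higher in all restricted and deficient libraries than in the adequate ones. Diet and endothelial content can therefore not be told apart here, and a cause of the Tet1 differences was not tested. For Tet2, rho with this list was 0.693 (permutation p = 0.00562, adjusted p = 0.0625), r was 0.465 (permutation p = 0.0805, adjusted p = 0.432), r without the 2 farthest libraries was 0.641, and r within diets was 0.287. With the covariate, Tet2 differed from adequate by 0.55 in supplemented, 0.56 in restricted and 0.45 in deficient, where it differed by 0.63, 0.62 and 0.58 without it, and the edgeR adjusted p-values were 0.438, 0.376 and 0.750.

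Tet3 had the widest ratio of highest to lowest library, 5.87, through a single low library, while its coefficient of variation, 26.8%, was below those of Tet1 and Uhrf1. The adequate libraries held 18.6, 89.7 and 109.5 CPM, the restricted ones 87.8, 78.9 and 82.2 CPM, and the deficient ones 64.6, 74.0 and 106 CPM. The supplemented libraries ran from 61.8 through a median of 88.5 to 99.0 CPM. Adequate held both the lowest and the highest library of the 15, so all diets overlapped with it. Against adequate the differences were 0.24, 0.19 and 0.16 in supplemented, restricted and deficient on the log2 scale. Without adequate replicate 1 they turned to -0.22, -0.28 and -0.30, with edgeR adjusted p-values of 0.828, 0.773 and 0.589, and without adequate replicate 3 they were 0.67, 0.62 and 0.58, so no direction can be given.

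The readers varied least over all 15 libraries together, but not without adequate replicate 1 and not within every diet. Mbd1, which binds methylated CpG and recruits histone methyltransferases, was measured at 21.9, 22.7 and 16.9 CPM in adequate, 19.2, 18.1 and 29.2 in restricted, and 26.4, 21.97 and 27.8 in deficient libraries. The supplemented ones ran from 18.8 through a median of 23.8 to 26.97 CPM. Mbd2, a subunit of a nucleosome remodelling and deacetylase complex, was measured at 61.3, 53.5 and 58.5 CPM in adequate, 40.5, 59.2 and 63.5 in restricted, and 71.7, 60.4 and 55.4 in deficient libraries. Its supplemented libraries ran from 46.3 through a median of 59.2 to 75.1 CPM. Each diet overlapped with every other for both genes. Over all 15 libraries their coefficients of variation were 16.03% and 15.86%, the lowest of the 9, where Tet1 had 48.4% and Uhrf1 31.5%. That order depended on adequate replicate 1, the lowest library for Tet2 but not for the readers. Without it Tet2 ran from 31.9 to 47.5 CPM, a narrower relative range than Mbd1 (16.9 to 29.2) or Mbd2 (40.5 to 75.1). Within adequate, which includes the length-affected replicate 1, the coefficients of the readers were also the lowest, 15.4% and 6.88%. Within restricted they were the highest of the 9, 27.6% and 22.4%, where Dnmt1 had 3.75%. Without adequate replicate 1 their differences from adequate in supplemented, restricted and deficient were 0.23, 0.14 and 0.35 for Mbd1, where they were 0.20, 0.11 and 0.31 with it. For Mbd2 they were 0.05, -0.06 and 0.15, where they were 0.02, -0.09 and 0.11. All 12 of their intervals stayed within a 2-fold change either way, the widest reaching 0.76 (log2) for Mbd1 and 0.65 for Mbd2.

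**Figure D3:**
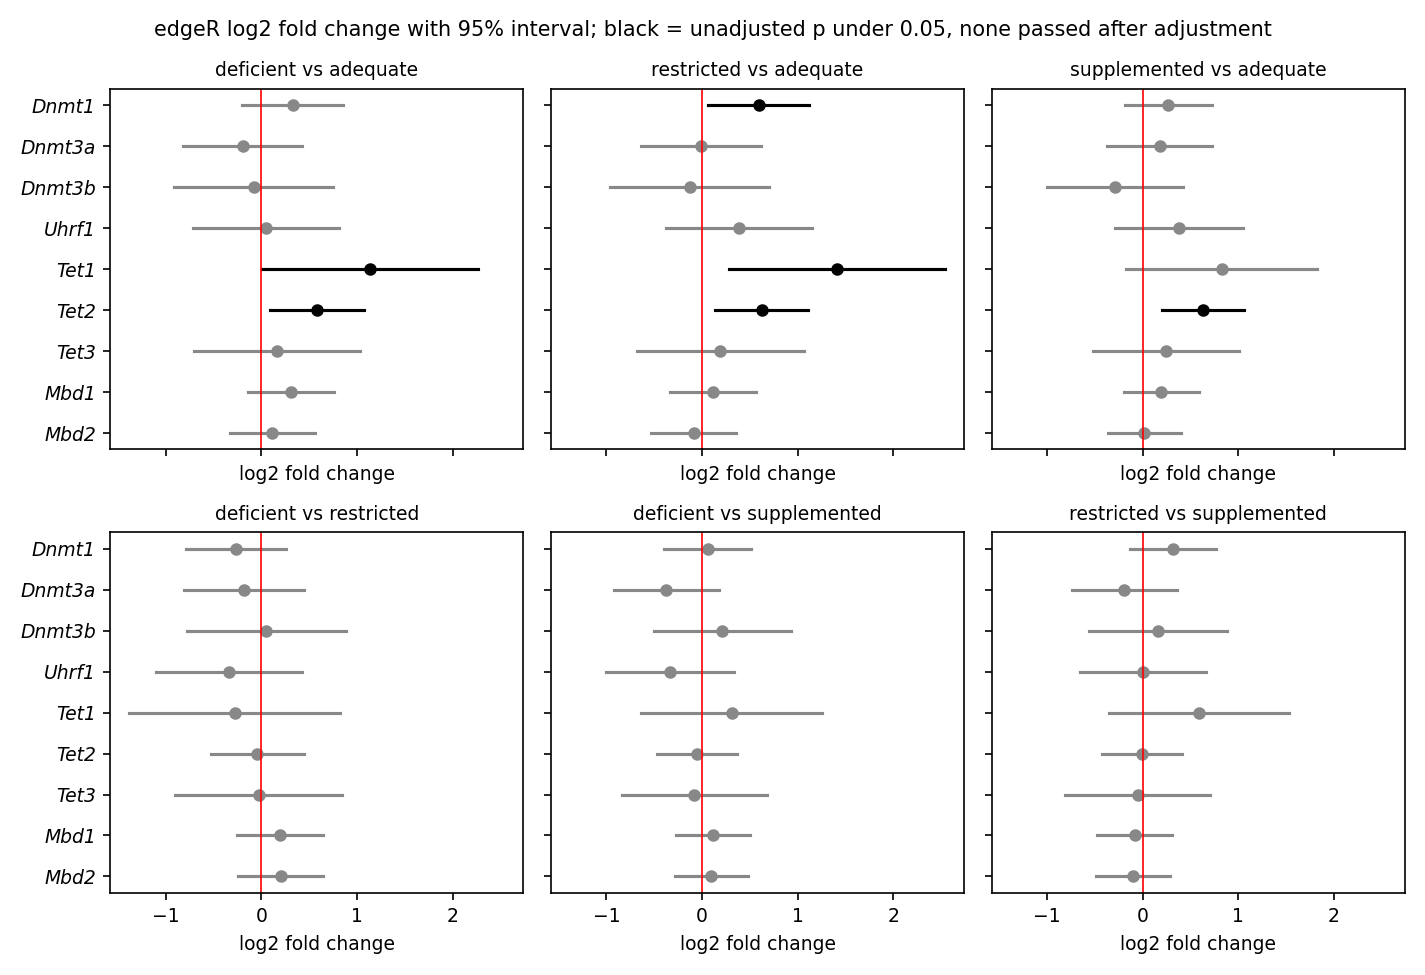
edgeR log2 fold change (horizontal axis) with its 95% interval for the 9 genes in each of the 6 diet pairs. Black marks the 6 results with an unadjusted p under 0.05, all in comparisons with the adequate diet, and none passed after adjustment. Of the 54 intervals, 36 lie within 1 log2 unit of 0.

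Uhrf1 followed the replication genes across libraries. A list of 40 genes of DNA synthesis, among them Mcm2 (a helicase subunit), Pcna (the polymerase clamp) and Rrm2 (a ribonucleotide reductase subunit), summed to 1426 to 3267 CPM, and none of its 40 tested genes was called in a diet comparison by edgeR. Between Uhrf1 and the list's mean log2 level, Pearson's r was 0.918 over 15 libraries (permutation p = 2e-05, adjusted p = 0.00054). Spearman's rho was 0.639 (permutation p = 0.0127, adjusted p = 0.0857). Without the 2 libraries farthest in replication level r was 0.789, and within diets it was 0.914. Dnmt1 followed the list less closely, with r = 0.347 (permutation p = 0.208) and rho = 0.350 (permutation p = 0.202). That value rose to 0.624 without adequate replicate 1 and was -0.16 without deficient replicate 3 and adequate replicate 2, the lowest in replication level. Uhrf1 ran against the alveolar type 2 markers, with r = -0.740 (permutation p = 0.00304, adjusted p = 0.0274) and rho = -0.779 (permutation p = 0.00096, adjusted p = 0.0259). There r was -0.765 without the 2 farthest libraries and -0.728 within diets. Of 27 relations between the 9 genes and 3 lists, 3 had an adjusted p under 0.05 by r and 1 by rho. The values compared come from the same libraries and scaling, and the part of lung admixture in the Uhrf1 level was not tested separately from replication.

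**Figure D4:**
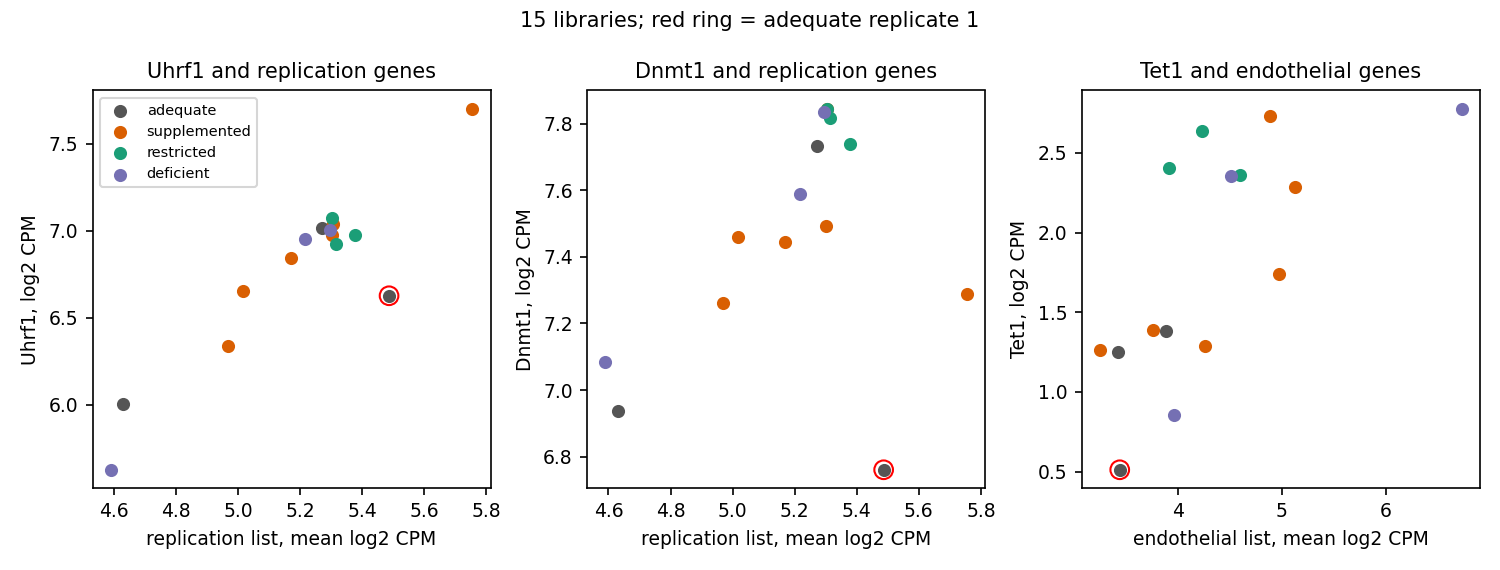
Log2 CPM of Uhrf1 and Dnmt1 against the mean log2 CPM of the replication list, and of Tet1 against that of the endothelial list, 1 point per library coloured by diet, with adequate replicate 1 ringed in red. Uhrf1 rises with the list (r = 0.918), Dnmt1 does so less (r = 0.347), and Tet1 rises with the endothelial list (r = 0.683).

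Among the 36 gene pairs within the set, 7 had r over 0.5 across the 15 libraries, and 2 did without adequate replicate 1. Below -0.5 there was 1 pair, and 3 without that library: Dnmt3b and Mbd1 (-0.58 with it, -0.65 without), Uhrf1 and Tet3 (-0.13 and -0.57), and Dnmt3b and Tet1 (-0.26 and -0.55). The pair Dnmt3a and Tet3 had r = 0.883 with that library and 0.558 without it, and Tet2 and Tet3 fell from 0.818 to 0.083. Dnmt1 and Uhrf1, whose promoters are printed above, had 0.569 and 0.633. These are descriptions, since the points share library scaling and length dependence.

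For each gene, the 3 genes of most similar pattern were taken by Pearson's r of log2 CPM over the 15 libraries among 9574 or 9575 genes with a mean log2 CPM of at least 3. Uhrf1 was closest to Mcm3 (0.959), a helicase subunit on the replication list, then to Spag5 and G3bp1. Dnmt1 was closest to Smarca4 (0.880), a chromatin remodelling ATPase, then to Tm9sf4 and Cdan1. Dnmt3a was closest to Bahcc1 (0.952), Sh3pxd2b and Clasp1, and Dnmt3b to Acbd6 (0.897), Sfswap and Pcdh7. Tet1 was closest to Axin2 (0.870), a Wnt target, Nos3, the endothelial nitric oxide synthase that is also on the endothelial list, and Sort1. Tet2 was closest to Zfyve26 (0.940), Ubap2 and Myo7a, and Tet3 to Hcfc1 (0.985), Arid1b and Myo10. Mbd1 (Ifit2 0.764, Cxxc1, Brd8) and Mbd2 (Glipr2 0.786, Ccn4, Ythdc2) had looser neighbours.

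Other genes that set, read or remove the mark gave no calls either. Of a list of 46, 44 were tested, 0 were called in any comparison by edgeR, and 3 had an unadjusted p under 0.05 for any difference among the diets, where 9.47% of all genes did; 1 of the 9 genes of the set, Tet2, was under that mark. In deficient against adequate their median log2 difference was -0.01, beside 0.16 for the 9 genes and 0.04 for all genes, and without adequate replicate 1 these were -0.10, 0.14 and 0.05. Hells, a remodeller needed for maintenance methylation, averaged 26.9 ± 14.6 CPM in adequate (SD, n = 3), 31.8 ± 6.68 in supplemented (n = 6), 34.8 ± 2.84 in restricted (n = 3) and 26.99 ± 10.98 in deficient libraries (n = 3). Tdg, the glycosylase that excises the bases Tet enzymes oxidise, was picked after its values were seen because it had the smallest p of the list. It averaged 69.0 ± 7.31 CPM in adequate, 52.4 ± 13.7 in supplemented, 51.3 ± 1.27 in restricted and 39.7 ± 3.90 in deficient libraries. Its deficient level differed from adequate by -0.80 (SE 0.22), with an edgeR adjusted p of 0.154, and by -0.82 (adjusted p = 0.222) without adequate replicate 1. No methionine trend passed either: 0 of 9 genes of the set and 0 of 44 of the list had an unadjusted p under 0.05, where 3.47% of all genes did.

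Genes that make and recycle the methyl donor gave 0 calls in 17 tested of 18 by edgeR, and 3 had an unadjusted p under 0.05 for any difference. Mat2a, which makes S-adenosylmethionine outside the liver, averaged 107 ± 25.7 CPM in adequate (SD, n = 3), 99.1 ± 17.1 in supplemented (n = 6), 104 ± 8.13 in restricted (n = 3) and 75.9 ± 33.4 in deficient libraries (n = 3). The deficient difference from adequate was -0.49 (SE 0.28), with an edgeR adjusted p of 0.411, and -0.28 (adjusted p = 0.719) without adequate replicate 1. Ahcy, which clears the methylation by-product S-adenosylhomocysteine, averaged 88.4 ± 29.7, 93.0 ± 22.1, 108 ± 7.54 and 99.9 ± 25.4 CPM in the same order of diets. Both genes overlapped between every pair of diets.

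Germline genes, which DNA methylation is known to silence in somatic cells, were read as a further list. Of 25 listed, 24 matched an ID, 5 were at 0 in every library and 8 were tested. None was called by edgeR, and the smallest unadjusted p for any difference was 0.107. Averages of at least 1 CPM in some diet were seen for 6: Fkbp6, Tex101, Piwil2, Tex19.1, Tex14 and Tex15. Tex14 reached this mean through supplemented replicate 3 alone, at 11.8 CPM, with the other 14 libraries at most 0.883 CPM. Tex15 reached it in deficient through replicate 3, at 3.51 CPM, with the other deficient libraries at 0.883 and 0 CPM. Fkbp6, a chaperone of the piRNA pathway, averaged 192 ± 24.2 CPM in adequate (SD, n = 3), 178 ± 36.4 in supplemented (n = 6), 178 ± 23.7 in restricted (n = 3) and 156 ± 52.5 in deficient libraries (n = 3). Tex101, a germ cell surface protein, averaged 122 ± 84.4, 97.4 ± 80.5, 224 ± 21.7 and 131 ± 129 CPM in that order. Piwil2, at 4.78 to 46.2 CPM, and Tex19.1, at 0.301 to 5.34 CPM, were also above 0 in every library. Fkbp6, Tex101, Piwil2 and Tex19.1 were thus read in all 4 diets. Reads from genes overlapping them cannot be told apart, because the strand setting of the counting is not known here.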

How the data were processed

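RNA from 15 samples of lung metastases was depleted of ribosomal RNA and made into stranded libraries, per the labels' protocols. The deposited tables hold RSEM expected counts (read numbers estimated for each gene) and effective lengths, per the file headers. Tools were Bowtie2 2.2.9 and RSEM 1.30 with build NCBIM37, per the submitters' processing notes; the annotation, strand setting and read filters were not given in the sources used here. Symbols came from a table of gene names by ID (32897 of 37620 IDs). No coordinates of the files' features are printed, since the reference given is of another build.

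Counts were rounded. Genes were kept by filterByExpr on the 4 diets (16001), scaled by TMM and tested in edgeR 4.0.16 (R 4.3.3) with 1 fit over 15 libraries, 11 residual degrees of freedom and Benjamini-Hochberg adjustment at 0.05. The biological coefficient of variation was 0.461. The trend used ranks 0 (deficient) to 3 (supplemented). Log2 CPM used a prior count of 2. DESeq2 1.42.0 and limma 3.58.1 were alternatives. Correlations over libraries used 100000 permutations. On simulated data for 16001 genes, deficient against adequate called 11% of 100 genes changed 2-fold and 59% of 100 changed 4-fold, with 2 unchanged genes called. For supplemented against adequate these were 21%, 52% and 5.

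Totals were 13107679 to 29994264 counts. Within diets, 24 library pairs differed beyond sampling noise (chi-square per degree of freedom 25.8 to 313), so no pair was treated as the same library. This does not show that they came from separate animals. The 9 genes and all lists were chosen with earlier results of these data known. Named were all 9, their 3 closest genes, Hells, Mat2a, Ahcy, Mcm2, Pcna, Rrm2, germline genes averaging at least 1 CPM, and genes of the methylation and methyl donor lists at p under 0.01 for any difference, of which there were 0. Tdg and Dnmt3l fall outside this rule and were named after their values were seen.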

Additional observations from a re-analysis of the deposited data

Results flagged for a closer look

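Tet3 in supplemented replicate 5 was measured at 61.8 CPM, apart from the other 5 supplemented libraries, the nearest of which held 84.1 CPM. On the log2 CPM scale the gap to that neighbour was 0.653 of the group's range, above the 0.625 that Dixon's test allows for 6 samples. On the CPM scale it was 0.598, under that value. After the adjustment for transcript length the library held 81.8 CPM, inside the 72.9 to 98.2 CPM of the other supplemented libraries. Chance sets apart about 1 in 20 such groups, and 9 genes were looked at in this diet. That library also carried 1667 CPM of muscle genes, and its log2 CPM differed from that of the other supplemented libraries by a median of -0.26 for genes over 3 kb. The part of the muscle genes in the Tet3 value was not tested.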

How the results depend on the processing

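None of the 9 genes passed the adjusted threshold in any of 1782 values from 25 other settings, and each count of genes called was 0. These settings were median-ratio size factors, no filter on low counts, DESeq2, limma-voom, only the 2 diets compared, covariates for replication, alveolar type 2 or endothelial genes, length offsets, leaving out each of 15 libraries, and leaving out adequate 1, supplemented 5 and deficient 3 together. Length offsets and the endothelial covariate were chosen after seeing the data. The lowest adjusted p was 0.0722, for Tet2 in supplemented against adequate with the replication covariate. Of 1566 signed values, 118 changed sign, none of them past the threshold, and the largest main difference to do so was 0.34 on the log2 scale. Without adequate 1, supplemented 5 and deficient 3 together, Tet3 in deficient against adequate was -0.53 (adjusted p = 0.152 in edgeR), where it was 0.16 with all libraries. No paired analysis was possible because the labels give no replicate numbers, and the numbers used here only name samples. What depth limits was not tested by thinning. At 21 to 179 counts Tet1 had the largest SEs, 0.44 to 0.53 on the log2 scale, while Dnmt3b at 34 to 149 counts had 0.34 to 0.39, close to Tet3 (0.36 to 0.41) at 296 to 2438 counts. In the simulated comparisons most genes changed 2-fold were missed. Those genes were picked at random, and the length dependence of adequate replicate 1 was not simulated. The recovery is therefore not that of the 9 genes.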
